A study of Mus musculus with 6 samples.

Results

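The genes described here code for the endosomal sorting complex required for transport III (ESCRT-III) and the ATPase that takes it apart. They were chosen by name: Chmp1a, Chmp1b, Chmp2a, Chmp2b, Chmp3, Chmp4b, Chmp4c, Chmp5, Chmp6 and Vps4b, 10 genes in all. Of these, 9 had a row under their GENCODE M21 identifier among the 43346 genes of the deposited count table, and all 9 passed the filter on low counts, as 9 of 14000 genes tested. Chmp1b was not analysed here. The cells were C57BL/6 MEFs (mouse embryonic fibroblasts, cultured from embryos) in primary culture at passage 9, grown in medium with fetal bovine serum and 2-mercaptoethanol. One group of 3 libraries came from cells given 3 µM erastin for 24 h, and the other group of 3 from cells given DMSO, the solvent. Erastin blocks the cystine/glutamate antiporter and is used to induce ferroptosis, a cell death driven by lipid peroxidation. The labels say that the experiment was done in triplicate but not whether the cultures came from separate embryos, so p-values measure the spread between these libraries, which may be technical.

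ESCRT-III subunits, the charged multivesicular body proteins (CHMPs), are small cytosolic proteins that assemble into filaments on membranes and pinch membrane necks closed from the inside. Upstream complexes (ESCRT-0, ESCRT-I, ESCRT-II and the adaptor ALIX) bring them to a membrane, and the ATPases VPS4A and VPS4B remove and recycle them. The machinery sorts cargo into multivesicular endosomes, completes cytokinesis, seals the nuclear envelope and sheds wounded plasma membrane, and such repair has been described as delaying death in ferroptosis, necroptosis and pyroptosis.

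Erastin-treated MEFs had more mRNA of 5 of the 9 measured genes and less of 1. Chmp4b, Vps4b, Chmp5, Chmp2b and Chmp2a rose by 1.21-fold to 1.34-fold, and Chmp6 fell to 0.675 of its DMSO level, at an edgeR adjusted p-value under 0.05. Chmp3, Chmp1a and Chmp4c did not pass. So 5 of 9 were called higher and 1 of 9 lower, where 21.6% of all genes tested were called higher, 21.5% lower and 43.1% in either direction. The median log2 fold change of the 9 was 0.27, beside -0.0014 over all genes tested. In 6 of the 9 all erastin libraries lay above all DMSO libraries, which held for 26.7% of all genes, and in 1 they lay below, which held for 25.9%. No test of the 9 genes as a set was made, and the genes were chosen with earlier results of these data known. Because RNA came from whole cultures, fewer cells with a transcript and less of it per cell cannot be told apart.

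**Figure D1:**
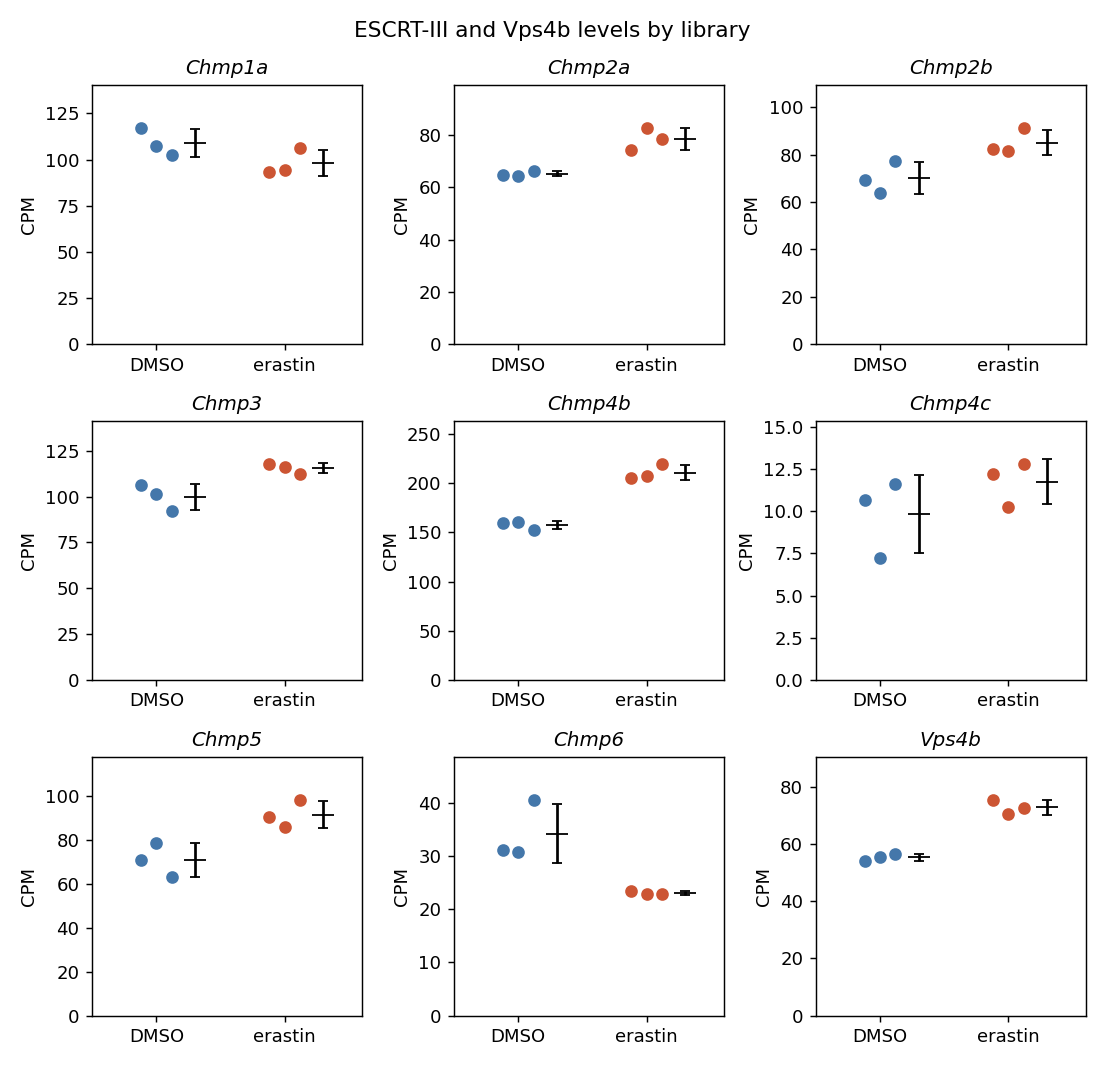
Levels of the 9 measured genes in CPM (read counts scaled by library size, vertical axes from 0) in 3 DMSO and 3 erastin libraries, 1 point per library, with the group mean and SD as a bar beside the points. Chmp4b, Vps4b, Chmp5, Chmp2a, Chmp2b and Chmp3 lie higher in every erastin library than in any DMSO library, Chmp6 lies lower, and Chmp1a and Chmp4c overlap.

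The regions before the RefSeq starts of the genes differed in base composition and in the motifs they held. RefSeq promoter sequences (GRCm38.p6, the assembly also called mm10, which the submitters' processing notes name) were found for 7 of the 9 genes, and Chmp4c and Chmp6 had none. The 250 bases before the start are shown for the 3 genes with the smallest p-values among those that rose and have an entry, and for Chmp1a, which did not pass, since it holds the same motif as Chmp5. Start, before and upstream refer here to RefSeq starts, which can differ from the GENCODE M21 gene spans. The Chmp4b window lies inside its GENCODE span, which begins at 154651705, and the Chmp5 window runs past the GENCODE start at 40948407. In the same way, 1 window of Chmp3 lies inside that gene's span. Capitals mark a match to the core of the antioxidant response element, the site bound by NRF2.
Chmp4b, chr2:154656776-154657025, + strand: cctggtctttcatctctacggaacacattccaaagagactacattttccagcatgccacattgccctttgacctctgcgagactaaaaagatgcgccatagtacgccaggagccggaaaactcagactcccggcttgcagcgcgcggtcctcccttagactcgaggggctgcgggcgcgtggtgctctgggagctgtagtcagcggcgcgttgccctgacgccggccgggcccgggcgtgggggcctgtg
Vps4b, chr1:106796726-106796975, - strand: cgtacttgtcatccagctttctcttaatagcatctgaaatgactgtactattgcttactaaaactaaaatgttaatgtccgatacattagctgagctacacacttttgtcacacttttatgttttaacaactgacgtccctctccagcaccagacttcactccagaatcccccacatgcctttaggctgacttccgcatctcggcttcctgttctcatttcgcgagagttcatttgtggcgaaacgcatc
Chmp5, chr4:40948303-40948552, + strand: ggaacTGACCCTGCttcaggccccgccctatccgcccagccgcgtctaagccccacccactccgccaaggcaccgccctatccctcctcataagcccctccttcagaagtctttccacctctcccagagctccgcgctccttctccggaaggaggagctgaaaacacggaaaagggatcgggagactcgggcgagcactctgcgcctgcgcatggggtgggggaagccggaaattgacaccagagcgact
Chmp1a, chr8:123212789-123213038, - strand: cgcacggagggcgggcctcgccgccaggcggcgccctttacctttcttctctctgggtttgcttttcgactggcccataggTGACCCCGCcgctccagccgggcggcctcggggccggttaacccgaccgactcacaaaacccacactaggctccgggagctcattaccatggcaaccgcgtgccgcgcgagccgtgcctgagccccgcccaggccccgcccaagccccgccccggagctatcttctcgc
The upstream window of Chmp1a was 70.0% G and C with 28 CpG dinucleotides, and that of Vps4b was 43.2% G and C with 9, against a median of 52.4% over all RefSeq promoters. The core TGACNNNGC, searched on both strands, stood at positions -245 to -237 of Chmp5 and -169 to -161 of Chmp1a, counted from the base before the start as -1. That is 2 of 7 genes, where 11.5% of 27025 genes with RefSeq promoters held it in at least 1 window of the same length; the 7 genes have 8 windows, since Chmp3 has 2. The core therefore stood before 1 gene that rose and 1 that did not pass. A GC box (GGGCGG) stood before Chmp1a, Chmp3 and Chmp5 and 35.4% of all genes, and the CCAAT box (CCAAT) stood only before Chmp3 and before 37.5% of all genes. The E-box CACGTG, which transcription factor EB recognises in lysosomal genes, the cyclic AMP response element TGACGTCA and the ATF4 composite element TGATGNAAN were not among the letters of any of the 7 genes' windows, and 6.86%, 1.77% and 3.89% of all genes held them. The letters were matched without regard to overlap between motifs, and a match is not evidence of binding.

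The filament-forming subunit CHMP4B, the main building block of ESCRT-III, had the most abundant transcript of the 9 measured. Chmp4b (chromosome 2, 154651705 to 154694785, plus strand) stood at 159.7, 160.4 and 152 CPM in DMSO replicates 1 to 3 and at 205, 207 and 219.7 CPM in erastin replicates 1 to 3. All erastin libraries were above all DMSO libraries, and the gap between the groups was wider than the spread within either. The means were 157 ± 4.49 and 211 ± 7.83 CPM (SD, n = 3 each), a log2 fold change of 0.42 (SE 0.07, edgeR adjusted p = 0.000257). The call held in all 15 alternative fits (other scalings, filters, corrections and DESeq2, or 1 library left out), with log2 fold changes from 0.37 to 0.58. Chmp4c (chromosome 3, 10366907 to 10428856, plus strand) codes for a paralog known from the abscission checkpoint, which delays the last step of cell division. Its levels were 10.7, 7.21 and 11.6 CPM in DMSO libraries and 12.2, 10.2 and 12.8 CPM with erastin. The groups overlapped, and the log2 fold change of 0.27 (SE 0.21, edgeR adjusted p = 0.336) did not pass; the 95% interval of the fold ran from 0.902 to 1.61. Leaving out 1 library moved the log2 value between 0.081, without DMSO replicate 2, and 0.41, without DMSO replicate 3, and it passed in none of these fits. Its 130 to 262 reads per library were the fewest of the 9 members, and its SE was the largest. Some 330 bases of its exons lie opposite exons of Snx16. Reads there could be left uncounted, or mixed with those of Snx16, if counting ignored strand. Within a library, Chmp4c gave 0.0626 ± 0.0160 reads per read of Chmp4b with DMSO and 0.0557 ± 0.00546 with erastin (SD, n = 3 each), with overlapping groups.

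CHMP6, which links ESCRT-II to the filament and starts its growth, had the only transcript called lower among the 9 members. Chmp6 (chromosome 11, 119913441 to 119919548, plus strand) stood at 31.2, 30.8 and 40.6 CPM in the DMSO libraries and at 23.4, 22.8 and 22.9 CPM with erastin. The erastin libraries were close together and below all DMSO libraries, while DMSO replicate 3 was higher than the other two. The means were 34.2 ± 5.53 and 23.0 ± 0.336 CPM (SD, n = 3 each), a log2 fold change of -0.57 (SE 0.13, edgeR adjusted p = 0.00276). Without DMSO replicate 3 the log2 fold change was -0.43 (edgeR adjusted p = 0.0135). After an offset per library for GC content and transcript length it was -0.36 (edgeR adjusted p = 0.0357), and -0.36 with the replicate block added (edgeR adjusted p = 0.0379), so the call held in all 15 alternatives, with adjusted p-values of 0.000599 to 0.0379. The transcript of Chmp6 is the richest in G and C of the measured members, at 58.3%.

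CHMP5 acts late, binding the VPS4 activator LIP5 (gene Vta1), and together with CHMP6 it has been reported to accumulate at the plasma membrane in ferroptosis. The transcripts of this pair moved in opposite directions. Chmp5 (chromosome 4, 40948407 to 40965303, plus strand) stood at 70.6, 78.3 and 62.9 CPM in the DMSO libraries and at 90.5, 85.8 and 98.2 CPM with erastin, without overlap. Its log2 fold change was 0.37 (SE 0.10, edgeR adjusted p = 0.00626), with means of 70.6 ± 7.72 and 91.5 ± 6.27 CPM (SD, n = 3 each), and it passed in all 15 alternatives. A ratio taken inside each library needs no scaling between libraries, but it is not corrected for GC content. The longest transcript is 58.3% G and C for Chmp6 and 43.9% for Chmp5. After the GC and length offset the log2 fold changes were -0.36 for Chmp6 and 0.36 for Chmp5. Chmp6 gave 0.442, 0.393 and 0.645 reads per read of Chmp5 in the DMSO libraries and 0.259, 0.266 and 0.233 in the erastin libraries. The mean ratio went from 0.493 ± 0.134 to 0.252 ± 0.0174 (SD, n = 3 each), and the groups did not overlap. The ratio of Chmp6 to Chmp4b went from 0.218 ± 0.0420 to 0.109 ± 0.00502 (SD, n = 3 each), also without overlap. No test of these ratios was run; both follow from genes already tested singly.

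CHMP2A, CHMP2B and CHMP3 join the filament after CHMP4, change its shape and recruit VPS4. Chmp2a (chromosome 7, 13032010 to 13034807, minus strand) stood at 64.7, 64.5 and 66.2 CPM in the DMSO libraries and at 74.4, 82.7 and 78.7 CPM with erastin. Chmp2b (chromosome 16, 65539128 to 65562726, minus strand) stood at 69.2, 63.9 and 77.2 CPM in the DMSO libraries and at 82.5, 81.7 and 91.3 CPM with erastin. In both genes every erastin library was above every DMSO library, although the gap for Chmp2b, between DMSO replicate 3 and erastin replicate 2, was smaller than the SD of either group. Chmp2a had a log2 fold change of 0.27 (SE 0.08, edgeR adjusted p = 0.0180) and Chmp2b one of 0.28 (SE 0.09, edgeR adjusted p = 0.0249). Of the 6 calls, these held in the fewest alternatives, 12 of 15 for Chmp2a and 9 of 15 for Chmp2b. With upper-quartile scaling the edgeR adjusted p-values were 0.0518 for Chmp2a and 0.0618 for Chmp2b. Chmp2a did not pass without DMSO replicate 2 (0.0579) or without erastin replicate 2 (0.0776). Chmp2b did not pass without DMSO replicate 1 (0.0627), DMSO replicate 2 (0.122), erastin replicate 1 (0.0550) or erastin replicate 3 (0.0802), nor after the GC and length offset (0.0705; 0.0441 with the replicate block added), all edgeR adjusted p-values. Chmp2b gave 1.08 ± 0.0881 reads per read of Chmp2a with DMSO and 1.09 ± 0.0881 with erastin (SD, n = 3 each), so the balance of these paralogs differed by less than the spread between libraries.

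Chmp3 (chromosome 6, 71543797 to 71582609, plus strand) lay at the threshold. It stood at 106, 101 and 91.9 CPM in the DMSO libraries and at 118, 116 and 113 CPM with erastin. The groups did not overlap, with DMSO means of 99.8 ± 7.23 and erastin means of 116 ± 2.70 CPM (SD, n = 3 each), but the log2 fold change of 0.21 (SE 0.08, edgeR adjusted p = 0.0503) did not pass. It passed in 4 of the 15 alternatives, among them total count scaling (0.0207), DESeq2 (adjusted p = 0.0387) and the fit without DMSO replicate 1 (edgeR adjusted p = 0.0389). Of its transcript, 6.76% of the 50-base stretches also stand in transcripts of other annotated genes, among them an antisense RNA. Chmp1a (chromosome 8, 123204264 to 123212763, minus strand) codes for a late subunit that binds VPS4. It stood at 117, 107 and 103 CPM in the DMSO libraries and at 93.5, 94.3 and 106 CPM with erastin, where erastin replicate 3 overlapped the DMSO libraries. Its log2 fold change of -0.15 (SE 0.09, edgeR adjusted p = 0.172) did not pass; the 95% interval of the fold ran from 0.798 to 1.01, and after correction for GC content and length the log2 value was 0.0035. Some 10.5% of its 50-base stretches also stand in the annotated gene Gm8515. That gene had 72 reads over all libraries, against 1317 to 2045 reads in each library for Chmp1a. Among the called members, such shared stretches made up 3.84% in Vps4b, 3.67% in Chmp2a and 0.133% in Chmp6. They made up 0% in Chmp4b, Chmp5 and Chmp2b.

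The ATPase VPS4B supplies the energy for disassembling the filament. Vps4b (chromosome 1, 106764071 to 106796728, minus strand) stood at 54.0, 55.5 and 56.4 CPM in the DMSO libraries and at 75.5, 70.3 and 72.7 CPM with erastin. The spread within each group was small and the groups were well apart, at 55.3 ± 1.18 and 72.8 ± 2.57 CPM (SD, n = 3 each). The log2 fold change was 0.40 (SE 0.09, edgeR adjusted p = 0.00152). Corrected for GC content and length it was 0.25 (edgeR adjusted p = 0.0267), and it stayed 0.25 when the block was added (edgeR adjusted p = 0.0377). It passed in all 15 alternatives. Its paralog Vps4a, which codes for the other VPS4 ATPase, stood at 43.6 ± 3.69 CPM with DMSO and 41.6 ± 5.21 CPM with erastin (SD, n = 3 each), with a log2 fold change of -0.068 (SE 0.11, edgeR adjusted p = 0.669). Vps4b gave 1.38, 1.22 and 1.23 reads per read of Vps4a in DMSO libraries and 2.05, 1.73 and 1.54 with erastin. The ratio was higher in every erastin library, with means of 1.27 ± 0.0872 and 1.77 ± 0.256 (SD, n = 3 each); it was not tested.

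Levels of different genes were compared as CPM per kilobase of annotated exon. In DMSO libraries the order was Chmp4b at 77.7 ± 2.21, Chmp2a at 56.1 ± 0.817, Chmp5 at 46.5 ± 5.08, Chmp2b at 36.4 ± 3.49, Chmp1a at 33.3 ± 2.26, Chmp3 at 30.7 ± 2.22, Chmp6 at 14.1 ± 2.27, Vps4b at 6.21 ± 0.133 and Chmp4c at 0.973 ± 0.229 CPM per kilobase (SD, n = 3). Chmp2b and Chmp1a, and Chmp1a and Chmp3, overlapped over the DMSO libraries; the other neighbours did not. In erastin libraries the order was the same except that Chmp3, at 35.6 ± 0.830, stood above Chmp1a, at 29.9 ± 2.14 CPM per kilobase, and that Chmp5 and Chmp2a overlapped. With the length of the longest transcript in place of all exons, Chmp1a ranked 3 with DMSO and 4 with erastin, Chmp2b ranked 6 with DMSO, just below Chmp3, and 5 with erastin, and with erastin Vps4b stood above Chmp6. The summed level of the 9 genes was 302 ± 4.05 CPM per kilobase with DMSO and 360.3 ± 11.9 with erastin (SD, n = 3 each). Within that sum the share of Chmp4b was 25.7% ± 0.432 with DMSO and 28.8% ± 0.119 with erastin, that of Chmp6 4.66% ± 0.819 and 2.63% ± 0.111, and that of Chmp1a 11.0% ± 0.614 and 8.30% ± 0.315 (SD, n = 3 each). A share of a sum also falls when other members rise, and Chmp1a itself did not pass (log2 fold change -0.15, edgeR adjusted p = 0.172). The share of Chmp2a was 18.6% ± 0.515 and 18.8% ± 1.09, a difference within the spread.

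**Figure D2:**
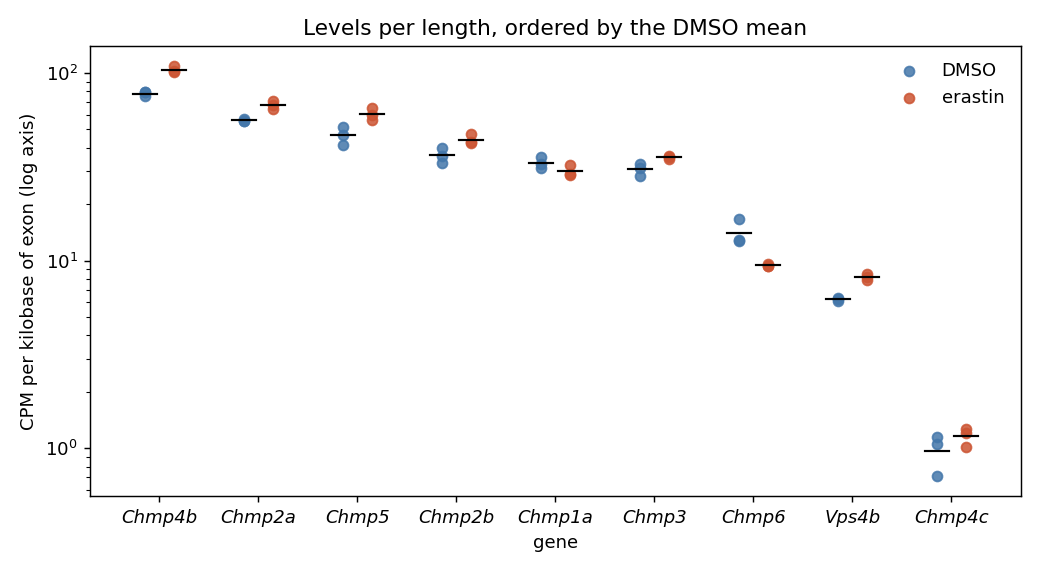
Level of each gene in CPM per kilobase of annotated exon (log axis), ordered by the DMSO mean, with 1 point per library, 3 DMSO and 3 erastin, and a line at each group mean. Chmp4b is highest in both groups, Chmp4c lowest, and Chmp6 drops toward Vps4b in the erastin libraries.

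**Figure D3:**
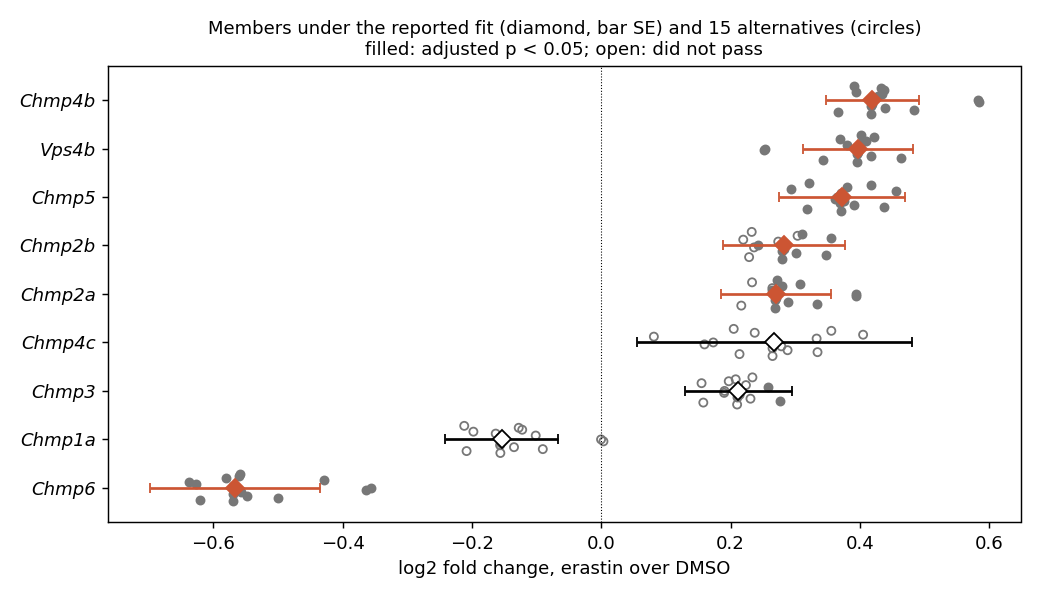
Log2 fold change (erastin over DMSO, horizontal axis) of the 9 genes in the reported fit (diamond, bar SE) and in 15 alternative fits (circles); filled marks had an adjusted p-value under 0.05. Chmp4b, Vps4b, Chmp5 and Chmp6 are filled throughout, Chmp2a in 12 of 15 alternatives, Chmp2b in 9, Chmp3 in 4, and Chmp4c and Chmp1a in none.

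Genes that work beside the members were taken from lists of the pathway. Of 30 further ESCRT genes with a row, 29 were tested; 12 were called higher, 6 lower and 11 neither, beside 21.6% higher and 21.5% lower over all genes, so the number lower was near that background. Their median log2 fold change was 0.21. Among the other ESCRT-III and VPS4 genes, 3 of 8 rose and 2, Chmp7 and Cc2d1b, fell; the call of Cc2d1b held in 10 of 15 alternatives. Vta1, whose product LIP5 activates VPS4 and binds CHMP5, rose from 31.2 ± 4.06 to 52.3 ± 3.06 CPM (SD, n = 3 each; log2 fold change 0.75, SE 0.11, edgeR adjusted p = 9.01e-05). Among the members no value exceeded 0.42. Ist1, which codes for a subunit that regulates VPS4, rose from 68.1 ± 2.93 to 86.8 ± 2.12 CPM (SD, n = 3 each; log2 fold change 0.35, SE 0.08, edgeR adjusted p = 0.00315). Chmp1b2, listed in GENCODE M21 as 2610002M06Rik, rose from 15.6 ± 1.64 to 25.3 ± 2.16 CPM (SD, n = 3 each), with an edgeR adjusted p of 0.00106 and a log2 fold change of 0.70. Corrected for GC content and length, Chmp1b2 had a value of 0.45 (edgeR adjusted p = 0.0193), and also 0.45 with the block added (edgeR adjusted p = 0.0278). Chmp7, which codes for the subunit that starts filaments at the nuclear envelope, was lower, at 63.3 ± 5.55 CPM with DMSO and 52.2 ± 2.82 CPM with erastin (SD, n = 3 each; log2 fold change -0.28, SE 0.10, edgeR adjusted p = 0.0311). This call for Chmp7 did not hold in 6 of 15 alternatives: without DMSO replicate 1 (0.126), DMSO replicate 3 (0.0539), erastin replicate 1 (0.0761) or erastin replicate 2 (0.118), without the filter on low counts (0.0738), or with total count scaling (0.116), all edgeR adjusted p-values.

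The recruiting complexes gave different counts, and differences between the lists were not tested. Over all genes tested, 21.6% were called higher and 21.5% lower. The 2 of 8 ESCRT-I genes and 1 of 5 ALIX and adaptor genes called lower were near that share. All 3 ESCRT-0 genes, whose products gather ubiquitinated cargo on endosomes, rose, with 0 falling at an unadjusted p-value under 0.05 or by DESeq2. Stam stood at 44.3, 45.2 and 44.1 CPM in the DMSO libraries and at 149, 151 and 141 CPM in the erastin libraries, a log2 fold change of 1.72 (edgeR adjusted p = 1.23e-09). Stam2 had a log2 fold change of 0.88 (edgeR adjusted p = 9.0e-07) and Hgs one of 0.85 (edgeR adjusted p = 3.38e-06). Of 8 ESCRT-I genes tested 4 rose and 2 fell (1 by DESeq2). Of the 4, Vps37a (log2 fold change 0.42, edgeR adjusted p = 0.00272) lost its call when corrected for GC content and length, at 0.19 (edgeR adjusted p = 0.128) and 0.18 with the block added (edgeR adjusted p = 0.147). Ubap1, an ESCRT-I subunit of the endosomal form, rose from 47.5 ± 2.16 to 76.1 ± 0.333 CPM (SD, n = 3 each), with a log2 fold change of 0.68 (edgeR adjusted p = 1.65e-05). Vps37b had the largest rise of these, from 16.7 ± 1.84 to 40.3 ± 9.89 CPM (SD, n = 3 each), with a log2 fold change of 1.27 (edgeR adjusted p = 2.86e-05). Tsg101, which codes for the core subunit that binds ALIX, rose from 32.0 ± 2.11 to 46.8 ± 2.88 CPM (SD, n = 3 each; log2 fold change 0.55, edgeR adjusted p = 0.000623). Neither of the 2 ESCRT-II genes tested, Snf8 and Vps36, passed with edgeR, with 0 at an unadjusted p-value under 0.05 and 0 by DESeq2. Of 5 ALIX and adaptor genes 2 rose and 1 fell. Ptpn23, which codes for the ALIX relative HD-PTP, had a log2 fold change of 0.75 (SE 0.09, edgeR adjusted p = 7.99e-06). Pdcd6ip, which codes for ALIX, an adaptor that binds CHMP4 directly, rose from 256 ± 5.86 to 316 ± 1.09 CPM (SD, n = 3 each; log2 fold change 0.30, SE 0.07, edgeR adjusted p = 0.00189). Cep55, whose product brings ALIX and ESCRT-I to the midbody of dividing cells, fell from 6.39 ± 0.167 to 1.13 ± 0.136 CPM (SD, n = 3 each; log2 fold change -2.49, SE 0.34, edgeR adjusted p = 3.26e-05). Of the 3 deubiquitinases of the pathway Stambp fell, with a log2 fold change of -0.51 (edgeR adjusted p = 0.00965), and Usp8 and Stambpl1 did not pass.

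Lists of membrane repair and of cell abscission held more genes that fell than rose, where 21.5% of all genes tested were called lower and 21.6% higher. Of 19 membrane repair genes outside ESCRT that were tested, 9 fell, 10 did not pass and 0 rose (edgeR; 1 was higher at an unadjusted p-value under 0.05, and 0 by DESeq2), with a median log2 fold change of -0.28. Anxa6, an annexin that caps plasma membrane wounds, fell from 392 ± 13.2 to 140.3 ± 1.01 CPM (SD, n = 3 each; log2 fold change -1.48, edgeR adjusted p = 1.17e-09), and Ehd2, which stabilises caveolae, had a log2 fold change of -0.91 (edgeR adjusted p = 1.01e-07). Of 13 genes listed for cytokinesis and abscission, most of them known from mitosis, 10 fell and 1, Ulk3, rose, with a median of -1.84. Anln, which codes for the scaffold anillin of the contractile ring, fell from 64.5 ± 2.38 to 16.3 ± 2.45 CPM (SD, n = 3 each), a log2 fold change of -1.98 (edgeR adjusted p = 1.33e-08). Beside these, Chmp6 was the only member called lower, at -0.57, and Chmp4c, the member tied to the abscission checkpoint, had a log2 fold change of 0.27 that did not pass.

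**Figure D4:**
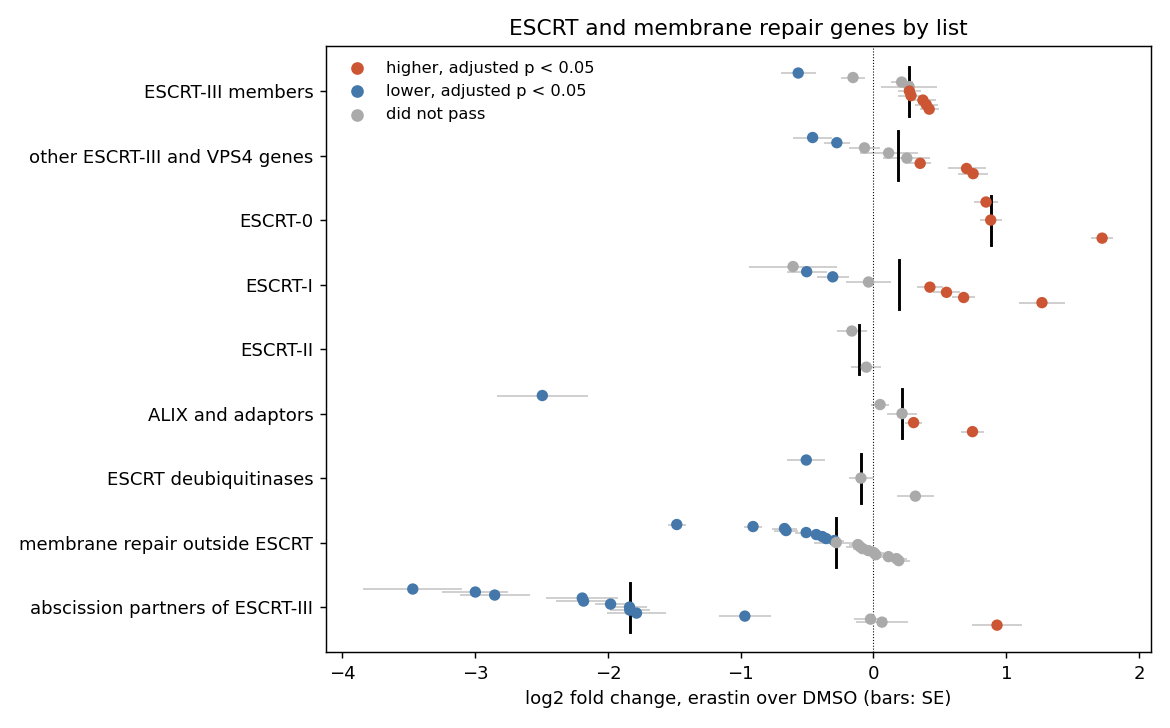
Log2 fold change (erastin over DMSO) of each tested gene, by list, with SE bars and a black line at the list's median; orange was called higher, blue lower and grey neither. The ESCRT-III members lie between -0.57 and 0.42, all ESCRT-0 genes lie to the right of every member, and most abscission partners lie far to the left.

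The libraries held 13333911 to 20509970 counted reads, and the erastin libraries were on average the deeper. Each member had at least 130 reads in every library, well above the floor of 3 reads, which is worth 0.140 to 0.234 CPM and covers counting error only. Fibroblast markers (10 genes) summed to 35433 to 38496 CPM with DMSO and 25455 to 26901 CPM with erastin, with 8 of 10 called lower. Over all genes tested, 21.5% were called lower, 21.6% higher and 43.1% in either direction. The summed markers of epithelial, leukocyte, endothelial, skeletal muscle and neural cells reached at most 27.4, 16.4, 17.4, 107 and 101 CPM in any library. Endothelial markers summed to 14.1 to 17.4 CPM with erastin against 5.10 to 7.71 CPM, and of the 3 of 5 that were tested 2, Kdr and Tek, were called higher, while group means of Pecam1 and Cdh5 stayed under 1 CPM. Neural markers summed to 55.8 to 61.7 CPM with erastin against 72.7 to 101 CPM, and of the 2 of 5 tested 1, Tubb3, was called lower. That count is near the 43.1% of all genes called in either direction. Skeletal muscle markers overlapped in their sum, at 82.2 to 91.2 against 86.6 to 107 CPM, and of the 2 of 5 tested Des was called higher, with a log2 fold change of 0.72, and Acta1 lower, with one of -1.58. Sums of epithelial and of leukocyte markers overlapped between the groups. Cldn4 had 0 reads in all DMSO libraries and Myog 0 reads in all erastin libraries. The part of these markers in the members' differences was not tested.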

How the data were processed

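RNA was sequenced from 6 libraries of MEFs on an Ion Proton instrument after ribosomal RNA depletion, per the labels' protocols. The authors deposited whole-number read counts per gene, with no normalization; the submitters' processing notes name HTSeq 0.9.1, SAMtools and mm10, while the aligner, annotation and strand setting are not given in the sources used here. Columns were matched through sample numbers in the labels, and 0 value columns were unused. Identifiers were matched without version to GENCODE M21 (42462 of 43346, 98%).

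Counts were tested with edgeR 4.0.16 in R 4.3.3: filterByExpr (minimum count 10 in 3 libraries), TMM factors, the quasi-likelihood functions glmQLFit and glmQLFTest with erastin against DMSO and no other term, and Benjamini-Hochberg adjustment over 14000 genes at 0.05. CPM are counts scaled by the TMM library size. SE is the log2 fold change divided by the root of its F statistic. Intervals of the fold used a normal multiplier of that SE, so they are somewhat narrower than the F test would give. The pipeline was also run on simulated counts in which few genes were changed, equally in both directions. That run cannot judge the scaling between libraries where, as here, 43.1% of genes were called. Alternatives were RLE, upper-quartile and total count scaling, 2 other filters, the replicate block, a GC and length offset (mgcv 1.9.3) with and without the block, DESeq2 1.42.0, and leaving out each library. Replicate pairs within a group differed beyond sampling noise (chi-square per degree of freedom 11.0 to 19.2). The labels do not say whether equal replicate numbers mark a shared culture or day, so libraries were not paired in the reported fit.

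All members are described. Of the other lists, genes with the smallest p-values (up to 4 a list) and named partners of members are given. Stambpl1, Usp8, Snf8, Vps36 and the markers were listed to complete a count, as were genes that overlap or share sequence with a member. Ulk3 was named as the 1 abscission partner that rose. Members and lists were chosen with earlier results of these data known.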

Additional observations from a re-analysis of the deposited data

How the results depend on the processing

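The 15 alternatives gave 4 to 7 members called (6 reported), 1 lower in each, and 3 to 6 higher (5 reported). Higher members numbered 3 with upper-quartile factors, under which the all-gene median was -0.055 (-0.0014 as reported), and 3 to 5 when 1 library was left out, the 3 being without DMSO replicate 2. The counts over all genes (4802 to 6104), the wider ESCRT lists (14 to 18, reported 18), membrane repair (9 to 11, reported 9) and abscission partners (11) stayed within 1.5 times the reported counts. Of 39 genes followed, 28 kept direction and side of the threshold in all 15 alternatives. Directions turned for genes that did not pass: Chmp1a was 0.0035 after the GC and length offset, Vps4a ran from -0.17 (without erastin replicate 3) to 0.012 (without erastin replicate 1), and Vps36 was 0.012 with total count scaling and ran from -0.18 (without erastin replicate 3) to 0.043 (without erastin replicate 2). The causes were not tested. With the replicate block 6 members were called and 5882 genes in all, 17 of the wider ESCRT lists among them, and it changed no call of a member; equally numbered libraries had correlations of 0.040, 0.0038 and -0.0055, so the numbers were not used as a pairing. Chmp4c had the fewest reads of the members and the largest SE; how far depth sets its spread was not tested.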
